A study of Triticum aestivum with 6 samples.

Results

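TEOSINTE BRANCHED1 (TB1) encodes a TCP-family transcription factor that represses the outgrowth of axillary buds. Common wheat carries 3 homoeologs, similar copies of the gene on chromosomes 4A, 4B and 4D, which were taken by identifier: TB1-4A (TraesCS4A02G271300), TB1-4B (TraesCS4B02G042700) and TB1-4D (TraesCS4D02G040100). All 3 were among the 70043 genes listed in the deposited counts and FPKM values. All 3 also passed the filter on low counts, which left 52228 genes for the test. TB1 expression was compared between axillary buds of the tatfl1-5 mutant and of the wild-type cultivar Fielder, with 3 biological replicates each and 1 library per replicate.

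The mutant was a CRISPR/Cas9-edited, transgene-free line in the Fielder background. It was homozygous for null alleles of TaTFL1-5 in the A, B and D subgenomes (aabbdd), so the mutant group represents 1 edited line. Fielder carried no edit, and the labels give no treatment for either group. Buds came from seedlings, for which the text and the methods of the paper give different ages. No table used here pairs the identifiers with bud marker genes, so the labelled tissue was not checked against markers. In bulk RNA, fewer cells that express a gene and less RNA per cell cannot be told apart.

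TB1 was first known from maize, in which loss of the gene releases lateral branches, and its rice ortholog likewise represses tillering. In wheat, TB1 acts in both tiller buds and the spike, and its protein binds FT1, the florigen of the family to which TFL1 also belongs. In rice, the SPL transcription factor IPA1 directly activates the TB1 ortholog, and TB1 is generally placed downstream of strigolactone, cytokinin and light signals in the bud.

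Library totals lay between 13320461 and 17174131 counts, so that 1 count was worth 0.0583 to 0.0725 CPM (counts relative to the library size after TMM normalization). Of the edited genes, TaTFL1-5A (TraesCS5A02G128600) had 1, 7 and 5 counts in mutant replicates 1, 2 and 3, against 9, 14 and 21 in Fielder replicates 1, 2 and 3. TaTFL1-5B (TraesCS5B02G127600) had 20, 19 and 23 counts in the mutant, against 46, 44 and 31 in Fielder. TaTFL1-5D was not analysed here. Genes were tested with the quasi-likelihood method of edgeR, with Benjamini-Hochberg adjustment, and called at an adjusted p-value under 0.05 together with a change of more than 2-fold, the threshold of the paper. Calls were made for 13.7% of the tested genes, which divides into 7.98% with a higher and 5.75% with a lower level in the mutant.

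None of the 3 TB1 homoeologs was called by edgeR (0 of 3, against 13.7% of all tested genes). TB1-4D was 1.65-fold higher in the mutant at the fitted level but did not pass the adjusted threshold. TB1-4B was at 1.26 times and TB1-4A at 0.884 times the Fielder level, and the 95% confidence intervals of both log2 fold changes included 0. An unadjusted p-value under 0.05 was reached by 1 of the 3 homoeologs, TB1-4D, and by 38.3% of all tested genes. DESeq2 also called 0 of the 3, with 1 at an unadjusted p-value under 0.05. For 0 of the 3 were the mutant and Fielder libraries free of overlap in CPM, against 43.1% of all tested genes.

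**Figure D1:**
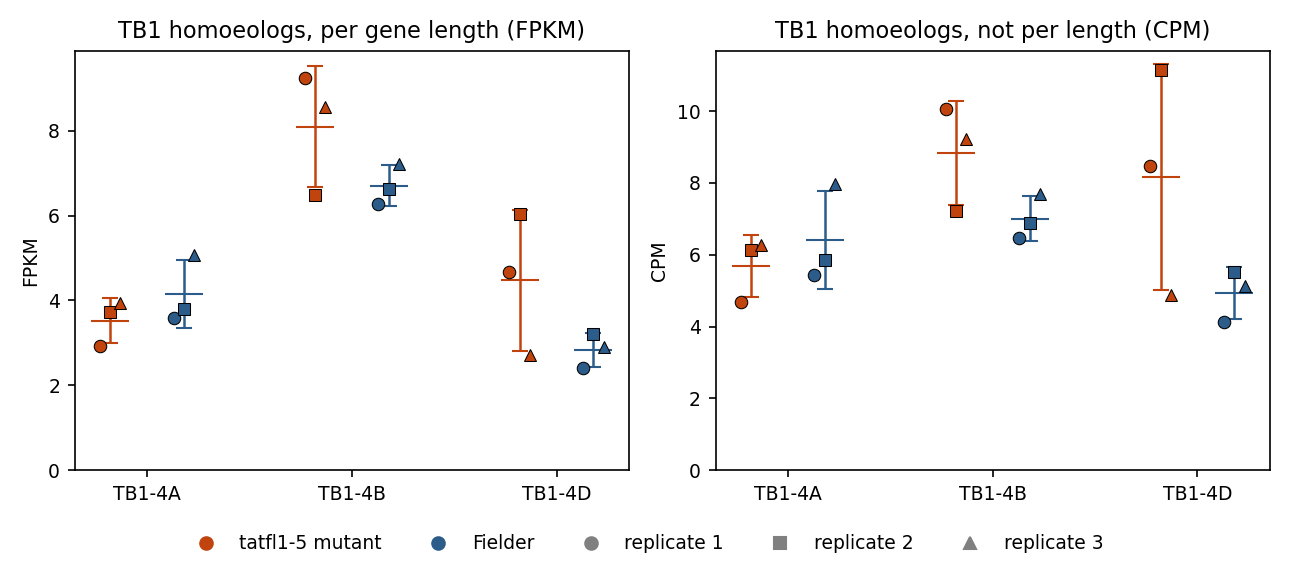
Level of each TB1 homoeolog in each library as FPKM (left, per gene length) and CPM (right, not per length), with the tatfl1-5 mutant to the left of Fielder. Points are libraries, marked by replicate number, and bars give the mean ± SD (n = 3 each). The groups overlap for every homoeolog, and the widest spread is that of TB1-4D in the mutant, from 4.87 to 11.2 CPM.

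TB1-4D had 139, 173 and 74 counts in mutant replicates 1, 2 and 3, against 57, 86 and 88 in Fielder replicates 1, 2 and 3. Its level was 8.48, 11.2 and 4.87 CPM in the mutant libraries, against 4.14, 5.53 and 5.13 CPM in the Fielder libraries. Mutant replicates 1 and 2 lay above every Fielder library, whereas mutant replicate 3 lay within the Fielder range. TB1-4D averaged 8.17 ± 3.15 CPM in the mutant and 4.93 ± 0.717 CPM in Fielder (SD, n = 3 each). The log2 fold change was 0.73 with a standard error of 0.31 and a 95% confidence interval from 0.06 to 1.39 (unadjusted p = 0.0337, adjusted p = 0.0982 by edgeR's quasi-likelihood method). Of all tested genes, 32.5% had a larger absolute log2 fold change.

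The result for TB1-4D depended on single libraries of both groups and on the method. Its log2 fold change came to 0.99 without mutant replicate 3 (adjusted p = 0.0336 in edgeR), which passed the p-value threshold and stayed just inside the 2-fold limit. It came to 0.44 without mutant replicate 2 (adjusted p = 0.398 in edgeR). When each of the 6 libraries was left out in turn, its adjusted p-value lay between 0.0336 and 0.398 in edgeR. It was above 0.05 in each case except the one without mutant replicate 3. The unadjusted p-value in edgeR was 0.0762 without mutant replicate 1 and 0.212 without mutant replicate 2. It was 0.0882 without Fielder replicate 1 and 0.0545 without Fielder replicate 3. Limma-trend on the log2 of the FPKM with 1 or 0.1 added gave an unadjusted p-value of 0.0886 or 0.0947. In each of the other alternatives the unadjusted p-value was under 0.05.

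The widest spread between replicates was that of TB1-4D in the mutant. Its coefficient of variation was 38.6% in the mutant and 14.5% in Fielder. TB1-4B varied by 16.5% in the mutant and 8.96% in Fielder, and TB1-4A by 15.2% in the mutant and 21.2% in Fielder. The biological coefficient of variation fitted over both groups was 26.0% for TB1-4D, 19.9% for TB1-4B and 22.7% for TB1-4A. The edgeR trend at their abundance was 24.5%, 22.8% and 25.2%. The fit draws the value of each gene towards this trend, so closeness to it says little about the spread of TB1. No test of the spread itself was made.

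TB1-4B had 165, 112 and 140 counts in the mutant, against 89, 107 and 132 in Fielder. Its level was 10.1, 7.22 and 9.22 CPM in the mutant libraries, against 6.46, 6.88 and 7.69 CPM in the Fielder libraries. Only mutant replicate 2, the library with the highest TB1-4D level, lay within the Fielder range. TB1-4B averaged 8.84 ± 1.46 CPM in the mutant and 7.01 ± 0.628 CPM in Fielder (SD, n = 3 each). The log2 fold change was 0.33 with a standard error of 0.24 and a 95% confidence interval from -0.17 to 0.84 (adjusted p = 0.327 by edgeR's quasi-likelihood method).

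TB1-4A had 77, 95 and 95 counts in the mutant, against 75, 91 and 137 in Fielder. Its level was 4.70, 6.13 and 6.26 CPM in the mutant libraries, against 5.44, 5.85 and 7.98 CPM in the Fielder libraries. Fielder replicate 3 stood above the other libraries, and mutant replicate 1 was the lowest. TB1-4A averaged 5.69 ± 0.866 CPM in the mutant and 6.42 ± 1.37 CPM in Fielder (SD, n = 3 each). The log2 fold change was -0.18 with a standard error of 0.27 and a 95% confidence interval from -0.76 to 0.41 (adjusted p = 0.671 by edgeR's quasi-likelihood method). The sign rested on Fielder replicate 3, without which the log2 fold change came to 0.006.

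The confidence intervals of TB1-4A and TB1-4B lay inside a 2-fold change in either direction, and that of TB1-4D did not. In the alternatives tried, the interval of TB1-4B crossed the 2-fold limit only without mutant replicate 2, at an upper bound of 1.02 on the log2 scale.

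**Figure D2:**
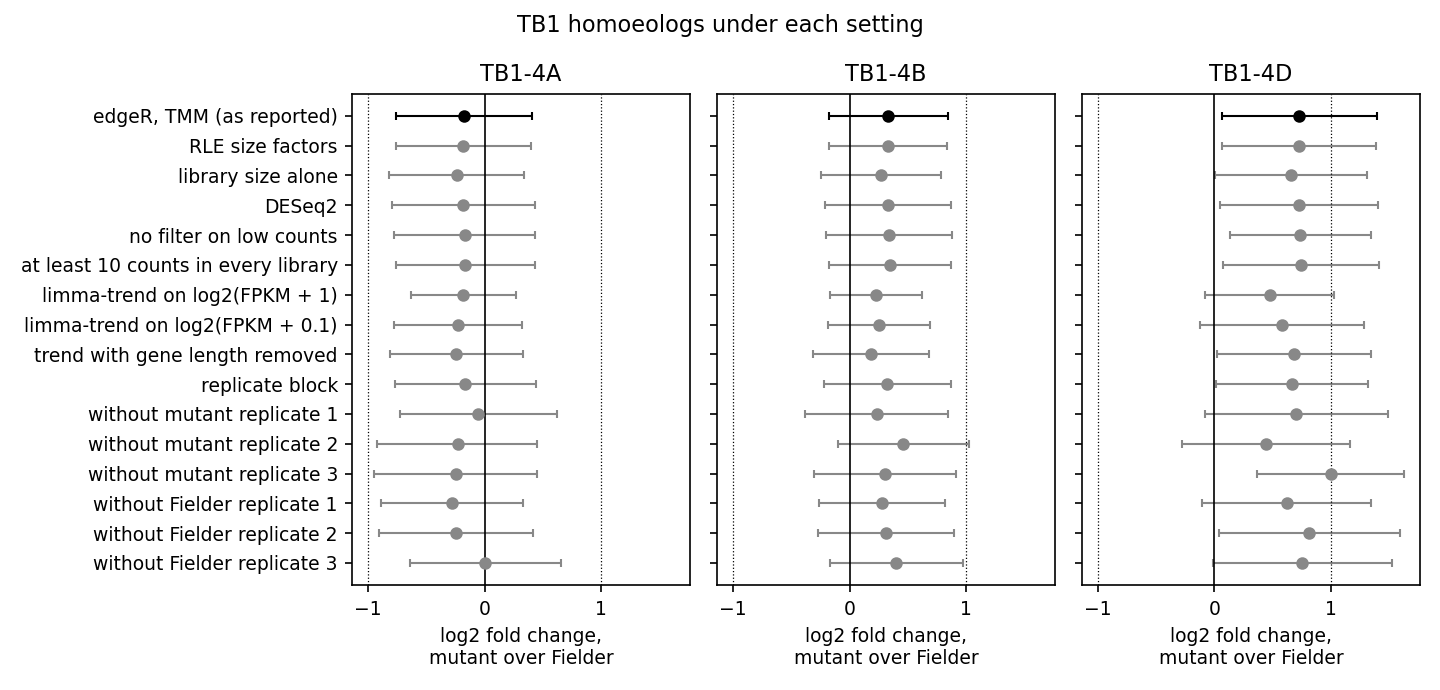
Log2 fold change, mutant over Fielder, of each TB1 homoeolog with its 95% confidence interval, in the edgeR fit reported (black) and under each alternative (grey), where dotted lines mark a 2-fold change. The estimate of TB1-4D is above 0 in every row, from 0.44 to 0.99, whereas the estimates of TB1-4A lie between -0.28 and 0.006.

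Compared per gene length, TB1-4B had the highest level of the 3 homoeologs in all 6 libraries. FPKM values, which divide the counts by gene length, were 9.24, 6.49 and 8.56 for TB1-4B in mutant replicates 1, 2 and 3, against 6.27, 6.62 and 7.22 in Fielder replicates 1, 2 and 3. TB1-4A had 2.92, 3.72 and 3.93 FPKM in the mutant, against 3.57, 3.81 and 5.06 FPKM in Fielder. TB1-4D had 4.68, 6.03 and 2.72 FPKM in the mutant, against 2.41, 3.20 and 2.89 FPKM in Fielder. In Fielder the order was therefore TB1-4B, TB1-4A, TB1-4D in each of the 3 libraries, and the values of these neighbours in the order did not overlap. In the mutant, TB1-4B also lay above both others without overlap. TB1-4D was above TB1-4A in mutant replicates 1 and 2 and below it in replicate 3, so these neighbours did not differ beyond their spread.

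This order depended on the length of the gene models. The deposited counts and FPKM values implied lengths of 1575 bases for TB1-4A, 1065 bases for TB1-4B and 1772 bases for TB1-4D. In counts, TB1-4B was above TB1-4A in 3 of 3 mutant and 2 of 3 Fielder libraries, and above TB1-4D in 2 of 3 mutant and 3 of 3 Fielder libraries. By mean FPKM over the 6 libraries, TB1-4B stood at the 64.9th percentile of the tested genes, TB1-4A at the 43.9th and TB1-4D at the 42.5th. The homoeologs are similar in sequence and the way in which the authors' counting assigned shared reads is not given in the sources used here, so the split of reads between them is uncertain.

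The balance of the homoeologs was then described as the share of each in the summed TB1 counts. TB1-4A took 20.2%, 25.0% and 30.7% of the TB1 counts in mutant replicates 1, 2 and 3, against 33.9%, 32.0% and 38.4% in Fielder replicates 1, 2 and 3. The mutant libraries were all lower than the Fielder libraries, but the nearest were apart by less than their counting error, with 95% Wilson intervals from 25.9% to 36.1% in mutant replicate 3 and from 26.9% to 37.7% in Fielder replicate 2. TB1-4D took 36.5%, 45.5% and 23.9% in the mutant, against 25.8%, 30.3% and 24.6% in Fielder. TB1-4D was thus the most counted homoeolog in mutant replicate 2 and the least counted in mutant replicate 3. TB1-4B took 43.3%, 29.5% and 45.3% in the mutant, against 40.3%, 37.7% and 37.0% in Fielder. Such intervals cover counting error only.

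**Figure D3:**
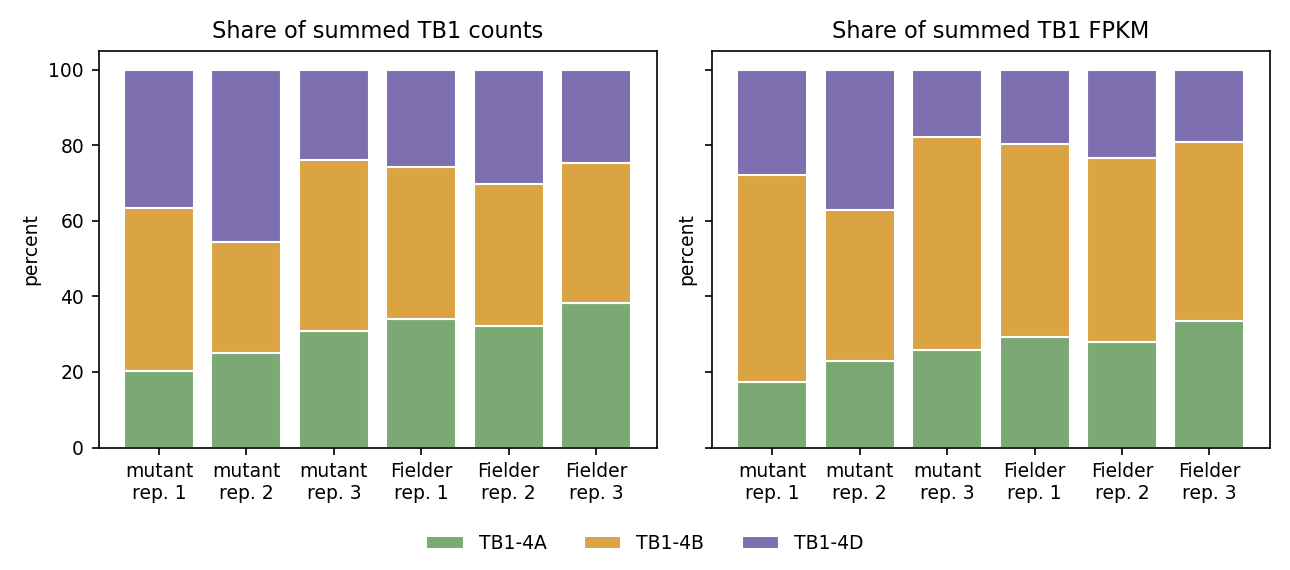
Share of each TB1 homoeolog in the summed TB1 counts (left) and in the summed TB1 FPKM (right) of each library, with mutant libraries to the left of Fielder libraries. The TB1-4D share ranges from 23.9% to 45.5% of the counts among the mutant libraries and from 24.6% to 30.3% among the Fielder libraries.

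Whether the homoeologs differed in their response was tested with the log2 ratio of their counts in each library, in which library size cancels. The log2 ratio of TB1-4A to TB1-4D was -0.85, -0.86 and 0.36 in the mutant, against 0.39, 0.08 and 0.64 in Fielder, a difference of -0.82 (p = 0.2 in a two-sided exact permutation test, adjusted p = 0.3 over the 3 ratios). The groups overlapped through mutant replicate 3. The ratio of TB1-4A to TB1-4B differed by -0.49 (exact permutation p = 0.2, adjusted p = 0.3), and that of TB1-4B to TB1-4D by -0.33 (exact permutation p = 0.6, adjusted p = 0.6). With 3 libraries against 3, this exact permutation test cannot go below p = 0.1, so a different response of the homoeologs was not shown and could not have passed the threshold.

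The summed level of the 3 homoeologs was more even between the mutant replicates than that of TB1-4D. It was 16.8, 16.2 and 15.2 FPKM in mutant replicates 1, 2 and 3, against 12.3, 13.6 and 15.2 FPKM in Fielder replicates 1, 2 and 3. The sum averaged 16.1 ± 0.821 FPKM in the mutant and 13.7 ± 1.46 FPKM in Fielder (SD, n = 3 each). The lowest mutant library, replicate 3, and the highest Fielder library, replicate 3, were nearly level at 15.21 and 15.17 FPKM. Scaled to the library total alone, in CPM, the sum was 22.7, 23.5 and 20.1 in the mutant, against 16.6, 18.7 and 20.8 in Fielder, and the groups overlapped. No test was made of a sum over the homoeologs.

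Across the 6 libraries, the homoeologs did not follow one pattern. The Pearson correlation of log2 CPM was -0.26 between TB1-4A and TB1-4B, -0.26 between TB1-4A and TB1-4D, and 0.27 between TB1-4B and TB1-4D. These values describe 6 points in 2 groups, which share library and depth. The tested genes with the most similar pattern to TB1-4D over these libraries were TraesCS2B02G290200, TraesCSU02G037500 and TraesCS4B02G255300, with correlations of 0.994, 0.994 and 0.993. TraesCS2B02G290200 had 122, 138 and 63 counts in the mutant, against 54, 75 and 78 in Fielder, the pattern it was picked for. For TB1-4B they were TraesCS3D02G285500, TraesCS4A02G075600 and TraesCS3B02G331600 (0.991, 0.990 and 0.989), and for TB1-4A TraesCS6A02G199800, TraesCS5A02G104000 and TraesCS1A02G194500 (0.989, 0.987 and 0.985). A correlation does not measure the size of a change. TraesCS4A02G075600 was called higher, unlike TB1-4B, at a log2 fold change of 4.21, with 204, 9 and 129 counts in the mutant, against 2, 4 and 12 in Fielder. All of these genes were picked from 52228 tested genes by correlation over only 6 libraries, so such high values come with the choice. None of them is named in the sources used here.

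The genes beside each homoeolog were taken as the 10 listed genes on each side in the order of the identifiers. Of these, 51 were tested and 1 was called, which is 1.96%, against 13.7% of all tested genes. Counted by the adjusted p-value alone, 12 of the 51 (23.5%) were under 0.05, 4 higher and 8 lower, against 26.5% of all tested genes. The called gene was TraesCS4D02G039900, 2 listed genes before TB1-4D, with 46, 30 and 28 counts in the mutant, against 4, 0 and 9 in Fielder. The log2 fold change of this gene was 2.96 ± 0.81 (SE, adjusted p = 0.0148 in edgeR). It was not called without mutant replicate 1 (adjusted p = 0.0763 in edgeR).

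On each of the 3 chromosomes, 1 of the listed genes next to TB1 in identifier order was lower in the mutant at an adjusted p-value under 0.05. These genes were picked out after their values were seen. The listed gene on the other side of TB1 had a log2 fold change of -0.194 on 4A, -0.07 on 4B and 0.355 on 4D, with an adjusted p-value above 0.05 in edgeR each time. TraesCS4A02G271200 had 251, 243 and 208 counts in the mutant, against 440, 383 and 428 in Fielder, with a log2 fold change of -0.87 (adjusted p = 0.00296 in edgeR). TraesCS4B02G042900 had 332, 215 and 217 counts in the mutant, against 436, 465 and 375 in Fielder, with a log2 fold change of -0.78 (adjusted p = 0.0125 in edgeR). TraesCS4D02G040200 had 345, 248 and 228 counts in the mutant, against 460, 368 and 378 in Fielder, with a log2 fold change of -0.60 (adjusted p = 0.0443 in edgeR). The mutant libraries lay below the Fielder libraries for these 3 genes, which were picked for being lower, and none was past the 2-fold limit. Among all tested genes, 43.1% had groups free of overlap in CPM, in either direction. With 1 library left out, the adjusted p-value of TraesCS4A02G271200 stayed under 0.05 each time. In edgeR it reached 0.0664 for TraesCS4B02G042900 (without mutant replicate 3, and 0.0543 without mutant replicate 2). For TraesCS4D02G040200 it was above 0.05 without mutant replicate 2, mutant replicate 3, Fielder replicate 1 or Fielder replicate 2, at 0.129, 0.171, 0.169 and 0.0617 in edgeR. Whether these 3 genes are homoeologs of each other was not tested.

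**Figure D4:**
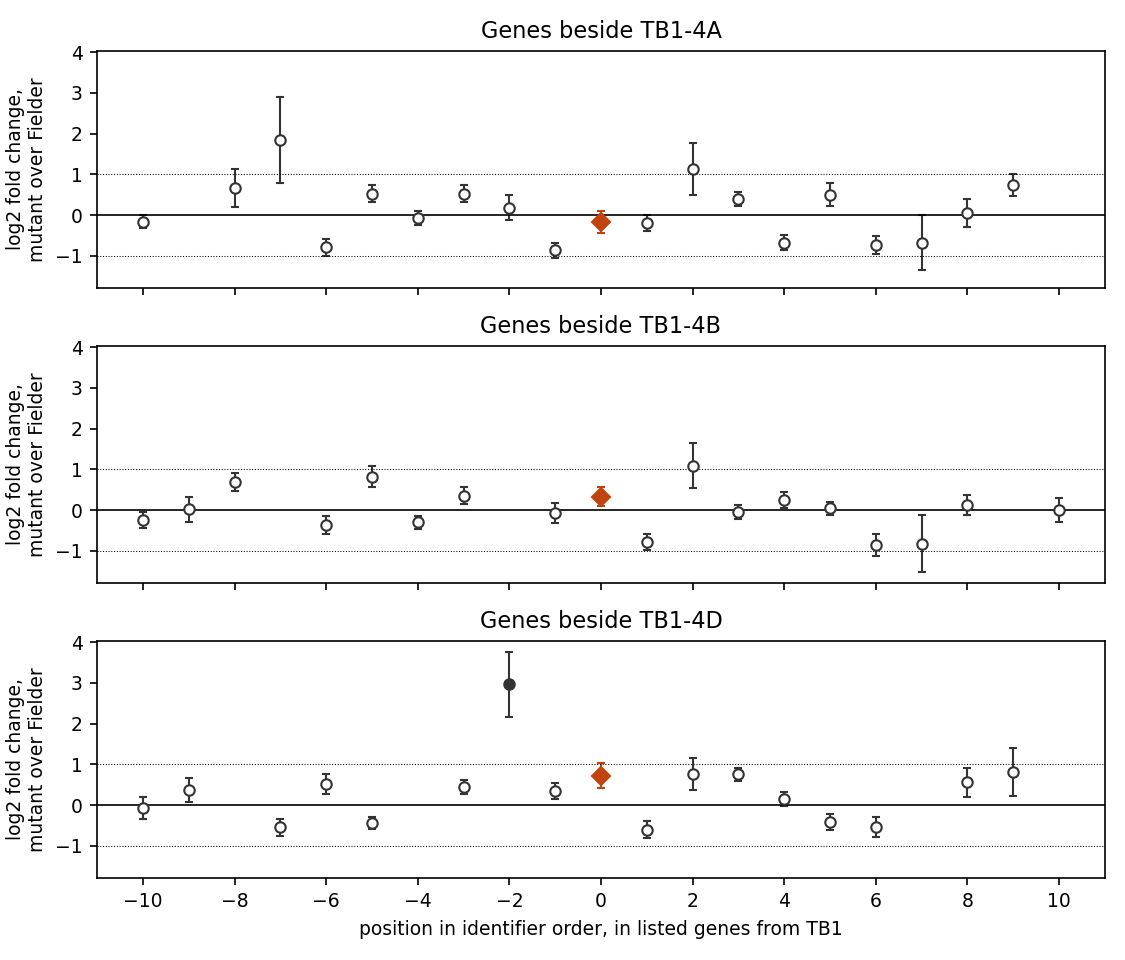
Log2 fold change, mutant over Fielder, with its standard error for the tested genes among the 10 listed genes on each side of each TB1 homoeolog, by position in identifier order. Red diamonds are TB1, filled circles are called genes and open circles are not called. The only filled circle is TraesCS4D02G039900 beside TB1-4D at 2.96, and dotted lines mark a 2-fold change.

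Other genes of the tillering pathway were taken as the paper names them. SPL genes encode squamosa-promoter-binding transcription factors, of which some act in tillering, and TaPIL1 encodes a repressor of tillering. Of the 8 SPL genes, edgeR called 6 higher and 0 lower and did not call 2, whereas DESeq2 called all 8. Among all tested genes, edgeR called 13.7%, and 7.98% were called higher. In edgeR the log2 fold changes of the SPL genes ran from 1.21 to 3.40 around a median of 2.60. Several of these genes had few counts in Fielder, so the size of their change is uncertain. TraesCS7D02G245200, with the largest change, had 47, 41 and 63 counts in the mutant, against 4, 1 and 9 in Fielder. TraesCS2D02G502900 had 23, 28 and 27 counts in the mutant, against 0, 7 and 1 in Fielder. Both TaPIL1 genes were called higher by edgeR and by DESeq2, with edgeR log2 fold changes of 1.24 and 1.32. The study chose the SPL and TaPIL1 genes as differentially expressed in these libraries, so their direction is not independent evidence. In edgeR, the number of calls fell when any library other than Fielder replicate 3 was left out, in fits with fewer libraries. Without mutant replicate 1 or mutant replicate 3, 1 SPL gene and 0 TaPIL1 genes were called. Without Fielder replicate 1 or Fielder replicate 2 the counts were 2 or 3 SPL genes and 0 TaPIL1 genes, without mutant replicate 2 they were 3 and 1, and without Fielder replicate 3 they stayed at 6 and 2.

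The paper lists 9 TFL1-like genes, which include the edited ones. Of these, 7 were tested, TaTFL1-5A and TaTFL1-5B among them, and 0 were called by edgeR or by DESeq2, against 13.7% of all tested genes in edgeR. TaTFL1-5A had a log2 fold change of -1.709 (unadjusted p = 0.0593, adjusted p = 0.147 in edgeR). TaTFL1-5B had one of -1.002 (unadjusted p = 0.0504, adjusted p = 0.131 in edgeR). Their adjusted p-values in limma-trend were 0.0456 and 0.0492 with 1 added to the FPKM, and 0.0628 and 0.0577 with 0.1 added. Of the 7, only TaTFL1-5A, TaTFL1-5B, TaTFL1-2B and TaTFL1-4D had mutant and Fielder libraries free of overlap in CPM. The share among all tested genes was 43.1%. An unadjusted p-value under 0.05 was reached by 2 of the 7 in edgeR, against 38.3% of all tested genes. These were TaTFL1-2B (TraesCS2B02G310700), with 123, 200 and 101 counts in the mutant, against 82, 83 and 108 in Fielder, and TaTFL1-4D (TraesCS4D02G305800), with 39, 34 and 43 counts in the mutant, against 14, 22 and 19 in Fielder. Mutant replicate 3 was the lowest of the mutant libraries for TaTFL1-2B, as it was for TB1-4D. It was the highest for TaTFL1-4D.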

How the data were processed

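RNA-seq of 6 axillary bud libraries was analysed, grouped by the genotype and replicate number in the sample labels. Filtered reads were mapped by the authors to the Ensembl Plants wheat reference, and the raw count of each gene was deposited. The deposited FPKM values were made by the authors from these counts, since a gene's counts and FPKM imply the same length in every library. The aligner, counter and genome build are not given in the sources used here. The paper names a NEBNext Ultra library kit and the labels a SMARTer one. Of the identifiers, 0 matched the RefSeq gene table, so no positions, annotations or sequences are given.

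Counts were fitted over all genes with edgeR 4.0.16 in R 4.3.3 (filterByExpr, TMM, quasi-likelihood test, no covariates, Benjamini-Hochberg adjustment over 52228 genes). The standard error was the log2 fold change divided by the square root of F. Ratios of homoeologs used counts plus 0.5 and log2 CPM a prior count of 2. Python 3.11.15, scipy 1.17.1, pandas 2.3.3 and matplotlib 3.10.9 were used for the rest. Alternatives were DESeq2 1.42.0, scaling by RLE or by library size alone, no filter or a minimum of 10 counts in every library, limma-trend from limma 3.58.1 on the log2 of the FPKM with 1 or 0.1 added, removal of each library's trend with gene length, the replicate block and leaving out each library. The fitting code was checked on simulated data with larger planted changes than those of TB1, which says nothing on power for TB1. The pathway genes named are those in the paper's text and its list of TFL1-like genes. The neighbours named are the called ones nearest to TB1 and, picked after their values were seen, 3 adjacent genes that were not called, and the likest genes are the 3 with the highest correlation for each homoeolog. The homoeologs and lists were chosen with earlier results of these data known. The paper describes 1 aabbdd line, so the mutant libraries are replicates of 1 line. The p-values set the group difference against the variation between libraries and do not extend to other edited lines.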

Additional observations from a re-analysis of the deposited data

How the results depend on the processing

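TB1 calls did not change in any of the 15 alternatives, with 0 of the 3 homoeologs called in each. The log2 fold change of TB1-4B stayed above 0 (0.18 to 0.46) and that of TB1-4D stayed above 0 (0.44 to 0.99). TB1-4A was below 0 except without Fielder replicate 3, where it was 0.006 (-0.28 to 0.006 over the fits that left out 1 library). The difference in the log2 ratio of TB1-4B to TB1-4D turned to 0.07 without mutant replicate 2 (-0.70 to 0.07 over these fits), and the other ratios kept their sign. Leaving out 1 library gave 3460 to 5054 genes called higher and 2615 to 3276 lower, and limma-trend on log2(FPKM + 1) gave 2728 higher. Library size alone gave 3762 higher and 3625 lower, against 4170 and 3002 in the edgeR fit reported, while the median log2 fold change of all genes moved by less than 0.1. TaTFL1-4D was called with at least 10 counts in every library (log2 fold change 1.07). TraesCS4D02G039900 was not called with limma-trend on log2(FPKM + 1) (0.91). Among the 5 or 20 listed genes on each side, 0 of 10 or 3 of 36 tested genes were called beside TB1-4A, 0 of 9 or 1 of 32 beside TB1-4B and 1 of 9 or 3 of 30 beside TB1-4D, against 13.7% of all tested genes. The cause of these shifts was not tested. With the replicate block, the log2 fold changes were -0.17, 0.32 and 0.67 for TB1-4A, TB1-4B and TB1-4D, with 4297 genes called higher and 2928 lower. Libraries with the same number did not deviate together over all genes (correlations of -0.02, 0.05 and 0.01). Such correlations would not show a shared batch that affects few genes, and the sample titles give only a number. At 57 to 173 counts per library, the intervals of the TB1 homoeologs in the edgeR fit reported allow changes of up to 2.62-fold. Without mutant replicate 3, the interval of TB1-4D reached 1.63 on the log2 scale.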
